A study of Mus musculus with 32 samples.

Results

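The common myeloid progenitor (CMP) gate of mouse bone marrow was compared between 4 Cxadr-ko mice (Mx1-Cre+ Cxadrfl/fl) and 4 control mice (Mx1-Cre- Cxadrfl/fl). RNA sequencing gave 1 CMP library per mouse, so 8 of the 32 libraries of the series enter the comparison. The other 24 libraries hold the LSK, GMP and MEP gates of the same 8 mice. Both genotypes carried floxed Cxadr alleles, and only the Cxadr-ko mice carried the Cre transgene, so the loss of Cxadr and the presence of Cre cannot be told apart. The sources used here do not state age, strain, how Cre was induced or which Cxadr exons were floxed. The CMP libraries held 8744480 to 11358982 gene-assigned reads each. Of 55487 genes listed, 15737 reached a normalized count of 10 in 4 or more of these libraries and were tested. A normalized count here is the number of reads of a gene divided by 1 size factor per library.

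Cxadr encodes the coxsackievirus and adenovirus receptor, a transmembrane adhesion molecule of the immunoglobulin superfamily that sits at epithelial tight junctions and at the intercalated discs of the heart. Common myeloid progenitors are Kit-positive, lineage-negative and Sca-1-low cells that give rise to granulocytes and monocytes and to the erythroid and megakaryocyte lineages. They are told from GMP and MEP cells by an intermediate display of Fc gamma receptors together with CD34. Mx1-Cre is a recombinase under an interferon-inducible promoter. It acts in haematopoietic cells and also in interferon-responsive cells of other tissues, so that a deletion made with it is not confined to 1 cell type.

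The libraries carried RNA of Kit and Cd34 and little of Ly6a, but neither Cd34 nor Fcgr3 RNA separated the gate from MEP. Kit, the stem cell factor receptor, averaged 1461 ± 84.6 normalized counts in Cxadr-ko and 1737 ± 87.9 in control libraries (SD, n = 4 each), and Cd34 averaged 10213 ± 1109.9 and 9794 ± 518. The CMP ranges of Cd34 (8876 to 11579 in Cxadr-ko and 9129 to 10287 in control) overlap those in MEP libraries (7979 to 9581 and 7212 to 9397). Ly6a, which encodes Sca-1, stood at 33.2 to 78.3 in Cxadr-ko and 20.3 to 54.8 in control CMP libraries, against 465 to 1206 in Cxadr-ko and 546 to 1197 in control LSK libraries. Fcgr3, an Fc gamma receptor, stood at 359 to 825 in Cxadr-ko and 278 to 406 in control CMP libraries. Those ranges overlap the MEP libraries (320 to 463 in Cxadr-ko and 312 to 543 in control) and lie far below the GMP libraries (3638 to 4333 and 3037 to 5261), so Fcgr3 RNA does not place the gate between MEP and GMP.

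A pair of Cxadr-ko libraries stood apart from the other 6. On the first principal component, which held 23.4% of the variance, Cxadr-ko mouse 4 lay at 73.1 and all others between -20.9 and 1.80. On the second component, with 20.5% of the variance, Cxadr-ko mouse 2 lay at 69.1 and all others between -22.2 and -5.11. These libraries also had the most tested genes at 0, 95 in mouse 2 and 122 in mouse 4, against 7 to 68 in the other 6. Each of the 12 pairs of libraries of 1 genotype was farther apart than counting noise allows (chi-square per degree of freedom, 6.29 at the lowest and 21.3 at the highest). The labels name separate animals, so the p-values below measure the spread between mice.

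Cxadr itself (chromosome 16, 78301489 to 78359774, GRCm38) was scarcely transcribed in the gate and its level was not detectably different between the genotypes. It stood at 38.7, 25.8, 14.2 and 39.5 normalized counts in Cxadr-ko mice 1 to 4, against 18.6, 27.4, 17.2 and 30.7 in control mice 1 to 4. The groups overlap, with Cxadr-ko mouse 3 the lowest of all. The log2 fold change was 0.26 ± 0.38 (SE; 95% interval -0.59 to 1.10; exact permutation test, two-sided p = 0.4, smallest possible 0.0286, n = 4 each). The 4 Cxadr-ko libraries together held 121 Cxadr reads (exact 95% Poisson interval 100.4 to 145) and the 4 control libraries 94 (75.96 to 115), intervals that take in no spread between mice. Gene-level reads also come from exons outside a floxed segment, so they do not show whether the segment was removed, and the groups are named as labelled.

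Few genes passed the test across the genome. The log2 fold change, Cxadr-ko over control, had a median of -0.01 and lay between -0.16 and 0.12 for the middle 50% of genes, and 48.9% of genes lay above 0. With limma and Benjamini-Hochberg adjustment over the 15737 genes, 4 genes were called at an adjusted p under 0.05 (0.0254%). All 4 were lower in Cxadr-ko libraries. At an unadjusted p under 0.05 there were 1144 genes (7.27%), of which 535 were higher (3.4%) and 609 lower (3.87%). The 4 Cxadr-ko values all lay above the 4 control values in 371 genes (2.36%) and all below them in 325 (2.07%).

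**Figure D1:**
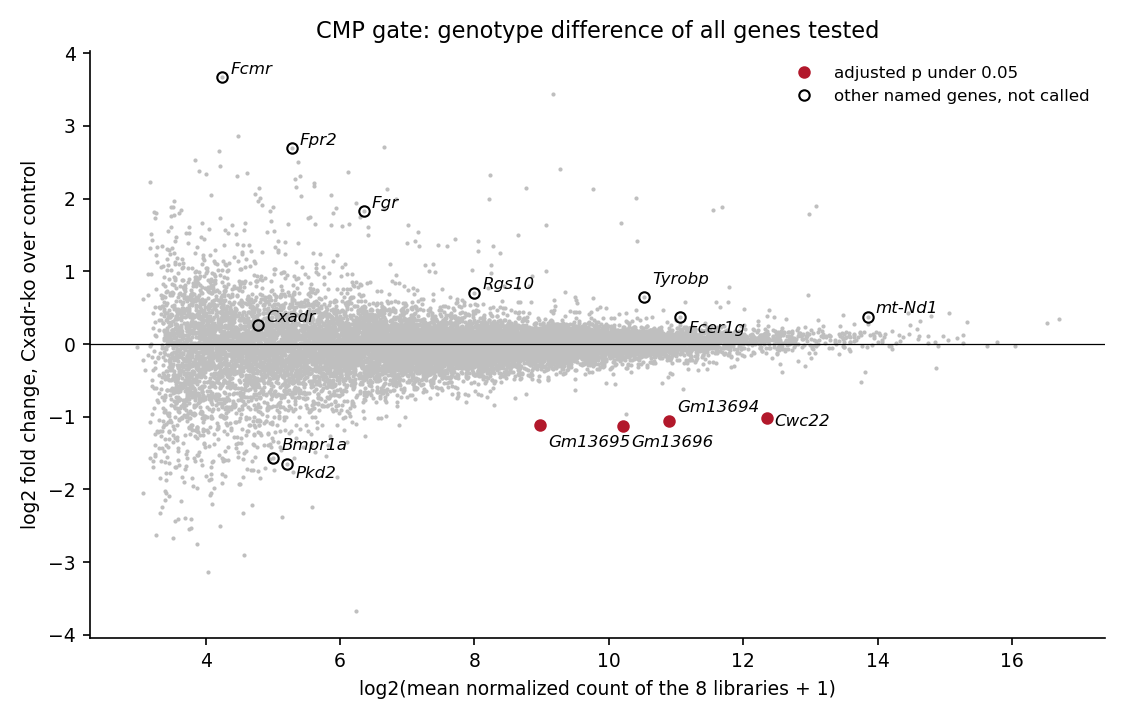
Each point is 1 of the 15737 genes tested in the CMP gate, with log2 of the mean normalized count of the 8 libraries plus 1 on the horizontal axis and the log2 fold change of Cxadr-ko over control on the vertical axis. The 4 filled points are the genes with an adjusted p under 0.05, all between -1.13 and -1.01, and open circles mark named genes that were not called.

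The 4 called genes form 1 sequence family. Cwc22 encodes a spliceosomal protein that binds the helicase Eif4a3 and guides it onto spliced transcripts, the first step in laying down the exon junction complex. That complex marks exon boundaries for export, translation and nonsense-mediated decay. Gm13694, Gm13695 and Gm13696 are predicted protein-coding genes without introns. Segments that hold Cwc22 are known to vary in copy number between mouse strains.

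Cwc22 (chromosome 2, 77881159 to 77946375, GRCm38) has 21 exons and a transcript of 3471 bases in GENCODE vM21. The 3 predicted genes each have 1 exon of 2493 bases and lie close together on the same chromosome: Gm13695 at 83967313 to 83969805, Gm13696 at 83973123 to 83975615 and Gm13694 at 83978933 to 83981425. Gm13694 and Gm13696 do not differ at any base, and Gm13695 differs from each at 1. The longest run shared by Cwc22 and Gm13695 without a difference is 344 bases, and 44.5% of the 50-base words of Gm13695 occur in Cwc22, against 31.8% of those of Cwc22 in Gm13695. A stretch of 120 coding bases is shown because it holds differences by which Cwc22 can be told from the predicted genes. The capitals mark the 3 bases that differ: a read that covers any of them can be assigned to Cwc22 or to the predicted genes, but no read within the stretch tells the predicted genes from one another. The Cwc22 stretch is on the minus strand and is joined across introns, and the stretch of the predicted genes, on the plus strand, is the same in all 3. Both are GENCODE vM21 transcripts on GRCm38.
Cwc22, chr2:77931493-77936594: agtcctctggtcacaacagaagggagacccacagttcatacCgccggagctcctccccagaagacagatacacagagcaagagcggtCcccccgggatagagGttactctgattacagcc
Gm13695, chr2:83967341-83967460: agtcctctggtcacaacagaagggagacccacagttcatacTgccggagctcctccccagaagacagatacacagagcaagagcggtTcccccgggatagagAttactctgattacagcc

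Cwc22 stood at 2919, 3528, 3981 and 3396 normalized counts in Cxadr-ko mice 1 to 4, against 5823, 7533, 7652 and 6849 in control mice 1 to 4. The groups do not overlap, and mouse 1 was the lowest of its group in both genotypes. Cwc22 fell in the Cxadr-ko gate (log2 fold change -1.01 ± 0.11 SE, limma with Benjamini-Hochberg adjustment, adjusted p = 0.00688), lower in 4 of 4 mice.

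Gm13695 stood at 266, 334, 337 and 332 in Cxadr-ko mice and at 665, 674, 701 and 706 in control mice, with little spread within each group (-1.12 ± 0.10 SE on the log2 scale, limma adjusted p = 0.00491). Gm13694 stood at 995, 1298, 1359 and 1301 in Cxadr-ko mice, against 2154, 2796, 2778 and 2534 in control mice (-1.05 ± 0.12 SE, limma adjusted p = 0.00688). Gm13696 stood at 591, 766, 833 and 781 in Cxadr-ko mice, against 1334, 1747, 1738 and 1687 in control mice (-1.13 ± 0.12 SE, limma adjusted p = 0.00688). All 3 fell without overlap, and mouse 1 was again the lowest of each group. Although Gm13694 and Gm13696 hold the same bases, Gm13694 had 1.502 to 1.694 times the count of Gm13696 in every CMP library. How reads were divided among the 4 genes is therefore uncertain, and their sum is the safer measure.

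Summed over the family, the count was 4772, 5926, 6510 and 5810 in Cxadr-ko mice, against 9976, 12749.9, 12869 and 11776 in control mice. The mean of the Cxadr-ko libraries was 0.486 times that of the controls, and the ratio of any Cxadr-ko to any control library lay between 0.371 and 0.653. The log2 fold change of Cwc22 stayed at -1.09 to -0.93 over 21 alternatives of fit, scaling and mice left out, and the gene was called in 18 of them. The call of Cwc22 in CMP was lost without control mouse 2 (adjusted p = 0.0537), 3 (0.0599) or 4 (0.0534), with log2 fold changes of -0.97, -0.96 and -1.02, and so were those of Gm13694 and Gm13696. Gm13695 in CMP lost its call without control mouse 3 alone (adjusted p = 0.0546).

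**Figure D2:**
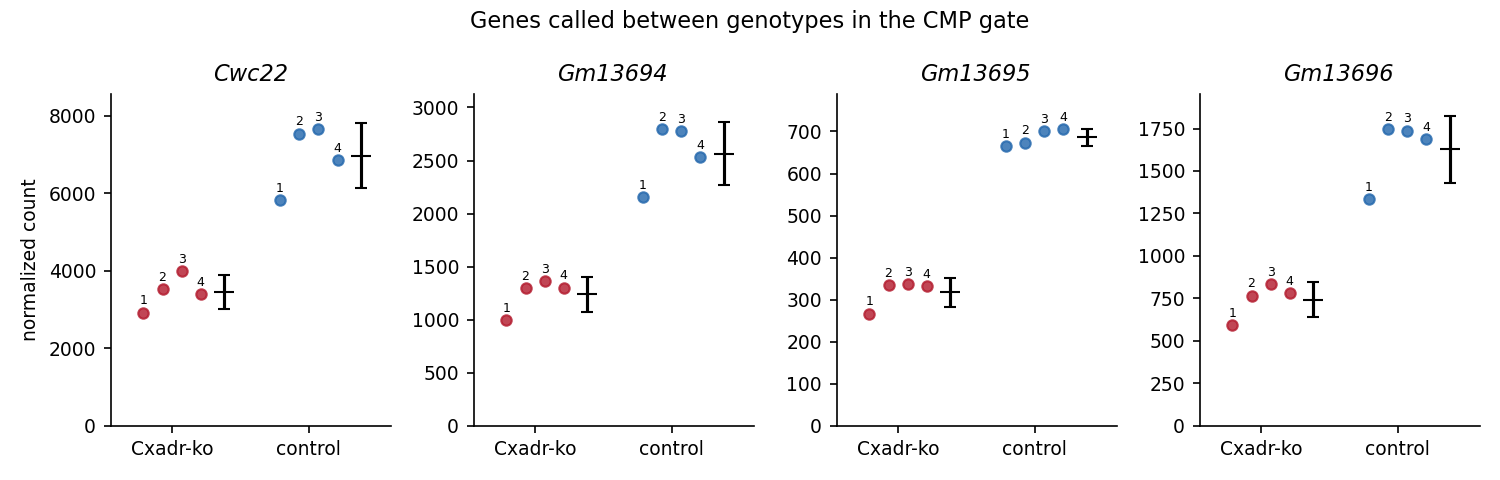
Normalized counts of the 4 called genes in each CMP library, Cxadr-ko mice (red) left of control mice (blue), with the mouse number above each point and the mean ± SD (n = 4) to the right of each group. In every panel all Cxadr-ko points lie below all control points, and mouse 1 is the lowest of its group.

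No transcript of the proteins that work with Cwc22 was called. Of 27 exon junction complex and splicing partner genes tested, Cwc22 included, 13 had higher and 14 lower values in Cxadr-ko libraries, with a median log2 fold change of -0.00, and Cwc22 was the 1 member called. Eif4a3, Rnps1 and Snrnp200 had log2 fold changes of 0.00, 0.00 and -0.00. Magoh, Rbm8a and Casc3, the other core subunits, had 0.06, 0.05 and -0.26, and the decay factors Upf1 and Upf2 had -0.06 and 0.05. Rbm45, an RNA-binding protein whose gene also lies on chromosome 2, was next after Cwc22 in p among the genes of this list alone. It stood at 241, 276, 206 and 204 in Cxadr-ko mice, against 339.6, 320.1, 306 and 503 in control mice, without overlap (log2 fold change -0.64 ± 0.17 SE, limma adjusted p = 0.620, not called). Of the 73 tested genes outside the Cwc22 family between 72000000 and 89000000 of chromosome 2, a window chosen after the values were seen, 39 were higher and 34 lower. None was called, and the median log2 fold change was 0.01. An unadjusted p under 0.05 was found for 5 of the 73, against 7.27% of all genes tested.

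After the Cwc22 family, the gene of lowest p was mt-Nd1 of the mitochondrial genome, and no mitochondrial transcript was called. Adding a term for the animal-identifier series, which sets mouse 1 of each genotype apart, brought mt-Nd1 and mt-Nd2 past the threshold. The mitochondrial genome encodes subunits of respiratory complexes I, III, IV and V. mt-Nd1, a complex I subunit, stood at 16071, 15881, 17807 and 16884 in Cxadr-ko mice, against 11774, 13449, 13194 and 13150.3 in control mice. All 4 Cxadr-ko libraries lay above all controls (log2 fold change 0.37 ± 0.06 SE, limma adjusted p = 0.192). mt-Nd2, of the same complex, stood at 5630.2, 6614, 6718 and 6329 in Cxadr-ko mice, against 4364, 4938, 4941 and 5385 in control mice, likewise without overlap (0.37 ± 0.08 SE, limma adjusted p = 0.499). mt-Cytb of complex III and mt-Co1 of complex IV also did not overlap, at log2 fold changes of 0.29 ± 0.08 and 0.32 ± 0.10 (SE). With quantile normalization the value of mt-Cytb, the most abundant of them, was 0. That method gives a gene of the same rank in every library the same value, so this 0 does not measure the difference.

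All 9 mitochondrially encoded genes tested had higher values in Cxadr-ko libraries, with a median log2 fold change of 0.28, and 4 of the 9 did not overlap (higher without overlap over all genes tested: 2.36%). The summed count of all 13 genes of the list, tested or not, was 170046, 178565, 195505 and 188556 in Cxadr-ko mice, against 125002, 155693, 160164 and 156503 in control mice. Control mouse 1 stood well below its group, and without it the median was 0.20. All genes of the mitochondrial genome together, its ribosomal and transfer RNA genes included, made up 2.23% to 2.38% of the normalized counts in Cxadr-ko and 1.64% to 2.05% in control libraries. The predicted genes Gm28437, Gm28661 and Gm13341 share the letters of mitochondrial transcripts. All 50-base words of Gm28437 occur in mt-Co3 (100%), all those of Gm28661 in mt-Co2 (100%) and 36.0% of those of Gm13341 in mt-Co2. They stood at log2 fold changes of 0.42 ± 0.09, 0.43 ± 0.09 and 0.47 ± 0.10 (SE), uncalled, and are not independent of the mitochondrial genes. With the term for the animal-identifier series Gm28437 and Gm13341 were called, and Gm28437 was also called without mouse 1 of both genotypes. Gm10925, all of whose 50-base words occur in mt-Atp6 (100%), was called in both of these settings and is likewise not independent.

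Most nuclear-encoded oxidative phosphorylation genes, and most ribosomal protein genes, had small values in the same direction as the mitochondrially encoded genes. Of 37 oxidative phosphorylation genes 35 were higher and 2 lower (median log2 fold change 0.10), 5 without overlap and none called. Of 43 ribosomal protein genes 38 were higher and 5 lower (median 0.08), and 7 higher and 2 lower members did not overlap. Over all genes tested, 2.36% were higher and 2.07% lower without overlap. Quantile normalization left a median of 0.07 for the first list and 0.01 for the second. Rps29 and Rpl38 went the other way: Rps29 stood at 3508, 3257, 3469 and 3126 in Cxadr-ko mice, against 4045, 3879, 4508 and 4060.1 in control mice, with no overlap (log2 fold change -0.30 ± 0.07 SE, limma adjusted p = 0.536). Rpl38 had a log2 fold change of -0.27 ± 0.07 (SE, limma adjusted p = 0.620), also without overlap. Mcu, the pore of the mitochondrial calcium uniporter, stood at 158, 186, 233 and 238 in Cxadr-ko mice, against 367, 302, 315 and 314 in control mice (-0.68 ± 0.15 SE, limma adjusted p = 0.536).

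Several other uncalled genes had higher values in Cxadr-ko libraries; they were put side by side here after their values were seen, and no shared theme was tested. Tyrobp encodes DAP12 and Fcer1g the common Fc receptor gamma chain, the adaptors through which many activating receptors signal. Tyrobp stood at 1956, 2086, 1919 and 1305 in Cxadr-ko mice, against 1076, 1167, 1129 and 1180.5 in control mice (log2 fold change 0.65 ± 0.13 SE, limma adjusted p = 0.499). Cxadr-ko mouse 4 lay close above the controls, and without it Tyrobp in CMP was called (0.80, limma adjusted p = 0.00787). Fcer1g stood at 2524, 2509.7, 2394 and 2199.5 in Cxadr-ko mice, against 1835, 1735, 1881 and 1988 in control mice, without overlap (0.37 ± 0.07 SE, limma adjusted p = 0.476).

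Rgs10, a regulator that shortens G protein signals, stood at 322, 279, 351 and 311 in Cxadr-ko mice, against 182, 227, 188 and 179.7 in control mice (log2 fold change 0.70 ± 0.13 SE, limma adjusted p = 0.396). Ms4a2, the beta chain of the high-affinity IgE receptor of mast cells and basophils, stood at 397, 409, 444 and 500.5 in Cxadr-ko mice, against 245, 196, 354 and 227 in control mice (0.81 ± 0.17 SE, limma adjusted p = 0.499). In both genes the groups do not overlap. Of the 8 mast cell, basophil and eosinophil genes tested, Ms4a2 included, 5 were higher and 3 lower, with no other member free of overlap (over all genes tested: 2.36% higher and 2.07% lower). Their median was 0.11, with -0.06 without control mouse 2, 0.25 without control mouse 3, 0.18 without control mouse 4 and 0.06 without Cxadr-ko mouse 4. Cpa3, a mast cell protease, had a log2 fold change of 0.12.

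Fgr, a Src-family kinase of myeloid cells, stood at 87.5, 237, 132 and 61.7 in Cxadr-ko mice, against 33.3, 38.5, 34.4 and 22.3 in control mice (log2 fold change 1.82 ± 0.37 SE, limma adjusted p = 0.499). Fpr2, a formyl peptide receptor of neutrophils, stood at 31.3, 152, 50.96 and 34.7 in Cxadr-ko mice, against 2.94, 7.09, 13.7 and 10.2 in control mice (2.69 ± 0.56 SE, limma adjusted p = 0.499). Il1r2, the decoy receptor for interleukin-1, stood at 171, 199, 47.4 and 63.6 in Cxadr-ko mice, against 27.4, 44.6, 28.6 and 12.1 in control mice (1.94 ± 0.50 SE, limma adjusted p = 0.620). None of the 3 overlapped between the groups, and Cxadr-ko mouse 2 was the highest library for each.

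Mature neutrophil genes, which are markers of another cell type, stood higher in the same libraries. Of 19 tested, 17 had higher and 2 lower values, with a median log2 fold change of 1.88, 4 without overlap and none called (higher without overlap over all genes tested: 2.36%). Their summed count was 24743, 119252, 23810 and 13290 in Cxadr-ko mice, against 2806, 21896, 14231 and 13155 in control mice. The groups overlap, Cxadr-ko mouse 2 was the highest and control mouse 1 the lowest by wide margins, and the median was 1.22 without the first and 1.01 without the second. Without Cxadr-ko mice 2 and 4 it was 1.57. S100a8, S100a9, Ltf and Ngp, the defining markers, were above 0 in every CMP library. The part of this signal in the values of Fgr, Fpr2 and Il1r2 was not tested. In bulk libraries, more cells of a type and more RNA per cell cannot be told apart.

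S100a8, a calprotectin subunit, stood at 7572, 36313, 7249 and 3732 in Cxadr-ko mice, against 378, 6565, 3893 and 4032 in control mice (log2 fold change 1.89 ± 0.85 SE, limma adjusted p = 0.678). Ltf, lactoferrin of secondary granules, stood at 728, 3769, 680.2 and 542 in Cxadr-ko mice, against 80.3, 482, 494 and 139.6 in control mice (2.13 ± 0.68 SE, limma adjusted p = 0.620). Cd177, a neutrophil surface protein, had a log2 fold change of 2.33 ± 0.75 (SE). Ltf and Cd177 did not overlap between the groups, whereas S100a8, S100a9, Ngp and Chil3 did.

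Granulocyte-monocyte progenitors make primary granule enzymes themselves. Among 28 granulocyte-monocyte progenitor genes 21 were higher and 7 lower (median log2 fold change 0.22, 0.12 without Cxadr-ko mouse 2 and 0.14 with quantile normalization), 1 without overlap and none called (higher without overlap over all genes tested: 2.36%). Mpo, myeloperoxidase, averaged 56587 ± 9157 in Cxadr-ko and 55298 ± 6812 in control libraries (SD, n = 4 each). Elane, neutrophil elastase, stood at 2689, 5522, 3351 and 3709 in Cxadr-ko mice, against 2690.3, 2027, 2989.7 and 2714 in control mice (log2 fold change 0.51 ± 0.19 SE, limma adjusted p = 0.638). Ly6c2, a marker of monocyte-committed cells, stood at 724, 603, 790.5 and 325 in Cxadr-ko mice, against 479.5, 298, 247 and 236 in control mice (0.93 ± 0.29 SE, limma adjusted p = 0.620). Cebpa, the transcription factor that drives granulocyte-monocyte fate, stood the other way at 183, 271, 229 and 212 in Cxadr-ko mice, against 277, 269, 331 and 316 in control mice (-0.42 ± 0.14 SE, limma adjusted p = 0.620). These genes all overlap between the groups.

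Stem cell and megakaryocyte genes lay on the low side. Among the stem and multipotent progenitor genes, 26 were tested: 4 had higher and 22 lower values in Cxadr-ko libraries, with a median log2 fold change of -0.23 (-0.15 without Cxadr-ko mouse 1). Of 20 megakaryocyte genes, 6 were higher and 14 lower, with a median of -0.20 (-0.32 without Cxadr-ko mouse 4, and -0.35 without mice 2 and 4). In each list 2 lower members did not overlap and none was called (lower without overlap over all genes tested: 2.07%). The lists share members, Gfi1b and Fli1 among them. The summed counts of all members of each list, tested or not, overlap: stem genes reached 20644 to 24549 in Cxadr-ko and 23655 to 25036 in control libraries, and megakaryocyte genes 6833 to 8502 and 8049 to 8645.

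Tek, the Tie2 receptor of stem and endothelial cells, stood at 74.6, 102, 105 and 132 in Cxadr-ko mice, against 155, 181, 164 and 191 in control mice (log2 fold change -0.76 ± 0.19 SE, limma adjusted p = 0.620). Thbs1, thrombospondin of platelet granules, stood at 29.5, 47.6, 21.3 and 56.9 in Cxadr-ko mice, against 87.1, 100.3, 69.8 and 127 in control mice (-1.35 ± 0.32 SE, limma adjusted p = 0.606). The groups do not overlap in either gene, and they do not overlap for Kit, at 1443, 1418, 1397 and 1584 in Cxadr-ko mice and 1709.7, 1635, 1845 and 1759 in control mice (-0.25 ± 0.07 SE, limma adjusted p = 0.620). Meis1 and Gfi1b, transcription factors of these lineages, overlapped, with log2 fold changes of -0.24 ± 0.08 and -0.44 ± 0.15 (SE). Gp1bb, a platelet receptor subunit, was at 0 in all 8 libraries.

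Erythroid genes showed no common direction. Of 14 tested, 8 were higher and 6 lower, with a median log2 fold change of 0.15 that turned to -0.08 when only genes of at least 50 counts were kept and was 0.32 without Cxadr-ko mice 2 and 4. Klf1 and Gata1, erythroid transcription factors, had log2 fold changes of -0.08 ± 0.39 and -0.09 ± 0.25 (SE). Hba-a1, an alpha globin, stood at 132, 29.8, 67.5 and 48.2 in Cxadr-ko mice, against 15.7, 21.3, 28.6 and 38.2 in control mice, with overlap (1.25 ± 0.44 SE, limma adjusted p = 0.637). Zfpm1, the Gata1 cofactor FOG-1, stood at 18.4, 23.8, 13.04 and 26.04 in Cxadr-ko mice, against 31.3, 49.6, 27.5 and 43.8 in control mice, without overlap (-0.88 ± 0.33 SE, limma adjusted p = 0.638). Of 19 heme synthesis and iron genes 13 were higher and 6 lower (median 0.05). Slc40a1, the iron exporter ferroportin, stood at 27.6, 33.7, 17.8 and 36.6 in Cxadr-ko mice, against 9.79, 7.09, 8.02 and 0 in control mice (2.45 ± 0.72 SE, limma adjusted p = 0.620). Every control value of Slc40a1 lay under 10, so it passed the filter only through the Cxadr-ko libraries, which fixed its lack of overlap. With a control library at 0, its fold change also depends on the pseudocount.

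**Figure D3:**
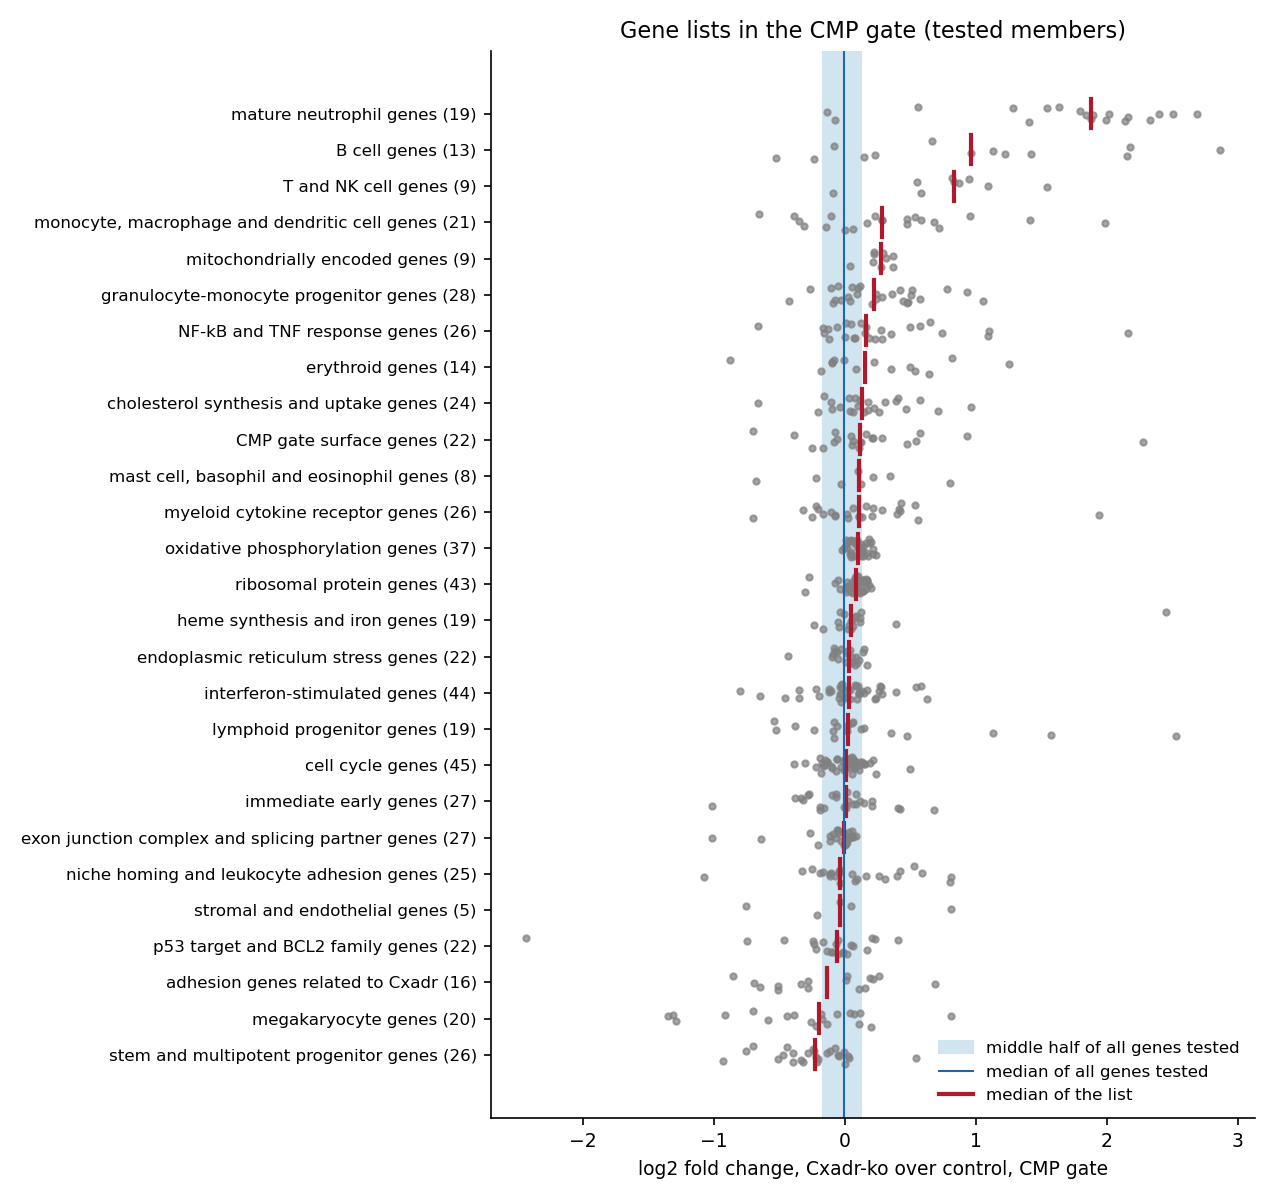
Log2 fold change, Cxadr-ko over control, of every tested member (grey points) of each gene list in the CMP gate, with the number tested in brackets and the list's median as a red bar. The blue band spans -0.16 to 0.12, the middle 50% of all genes tested. Medians run from -0.23 for stem cell genes to 1.88 for mature neutrophil genes, and Cwc22 is the 1 member called in any of these lists.

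Genes of lymphocytes formed the other set of foreign markers. Of 13 B cell genes 10 were higher and 3 lower (median log2 fold change 0.96, 0.46 without Cxadr-ko mouse 1 and 0.45 when only genes of at least 50 counts were kept), 2 without overlap and none called (higher without overlap over all genes tested: 2.36%). The sum of all 18 genes of the list, tested or not, was 22759, 9250, 9777 and 8799 in Cxadr-ko mice, against 13142, 9928, 8133 and 8724 in control mice, so mouse 1 was the highest in both genotypes and the groups overlap. Immunoglobulin transcripts took 0.285% of the normalized counts in Cxadr-ko mouse 1, 0.136% in control mouse 1 and at most 0.0623% elsewhere. Of 9 T and NK cell genes tested 8 were higher and 1 lower (median 0.83, 0.36 without Cxadr-ko mouse 1 and 0.53 without Cxadr-ko mouse 2). All 20 T and NK cell genes of the list had overlapping sums of 6091 to 8182 in Cxadr-ko and 5652 to 8390 in control libraries. Among their defining markers, Trac stood at 2.98 to 22.2 in Cxadr-ko and 0 to 2.94 in control libraries, Cd3e at 0 to 12.5 and 0 to 3.04, and Klrb1c at 19.3 to 170.4 and 14.2 to 78.3. Gzma was at 0 in every Cxadr-ko library and at 0 to 2.94 in control libraries.

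Fcmr, the Fc receptor for IgM that B cells carry, had the largest log2 fold change of the genes of lowest p. It stood at 50.7, 33.7, 23.7 and 26.04 in Cxadr-ko mice, against 0.979, 6.08, 2.29 and 0 in control mice, with no overlap (3.67 ± 0.63 SE, limma adjusted p = 0.310). At such counts the fold depends on the pseudocount, and with 5 in place of 1 it was 2.41 (limma adjusted p = 0.0811). Every control value of Fcmr also lay under the minimum of the filter. Fcmr therefore passed the filter only through the Cxadr-ko libraries, which fixed its direction and its lack of overlap. Cd79a, the signalling chain of the B cell receptor, stood at 46.1, 117, 47.4 and 99.3 in Cxadr-ko mice, against 10.8, 32.4, 24.05 and 5.59 in control mice, also without overlap (2.18 ± 0.52 SE, limma adjusted p = 0.620). The order of the libraries for Fcmr and Cd79a differed from that of the summed B cell genes. The part of other cells in these values was not tested. Of 19 lymphoid progenitor genes 11 were higher and 8 lower (median 0.02, and -0.08 to 0.24 with 1 mouse left out).

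**Figure D4:**
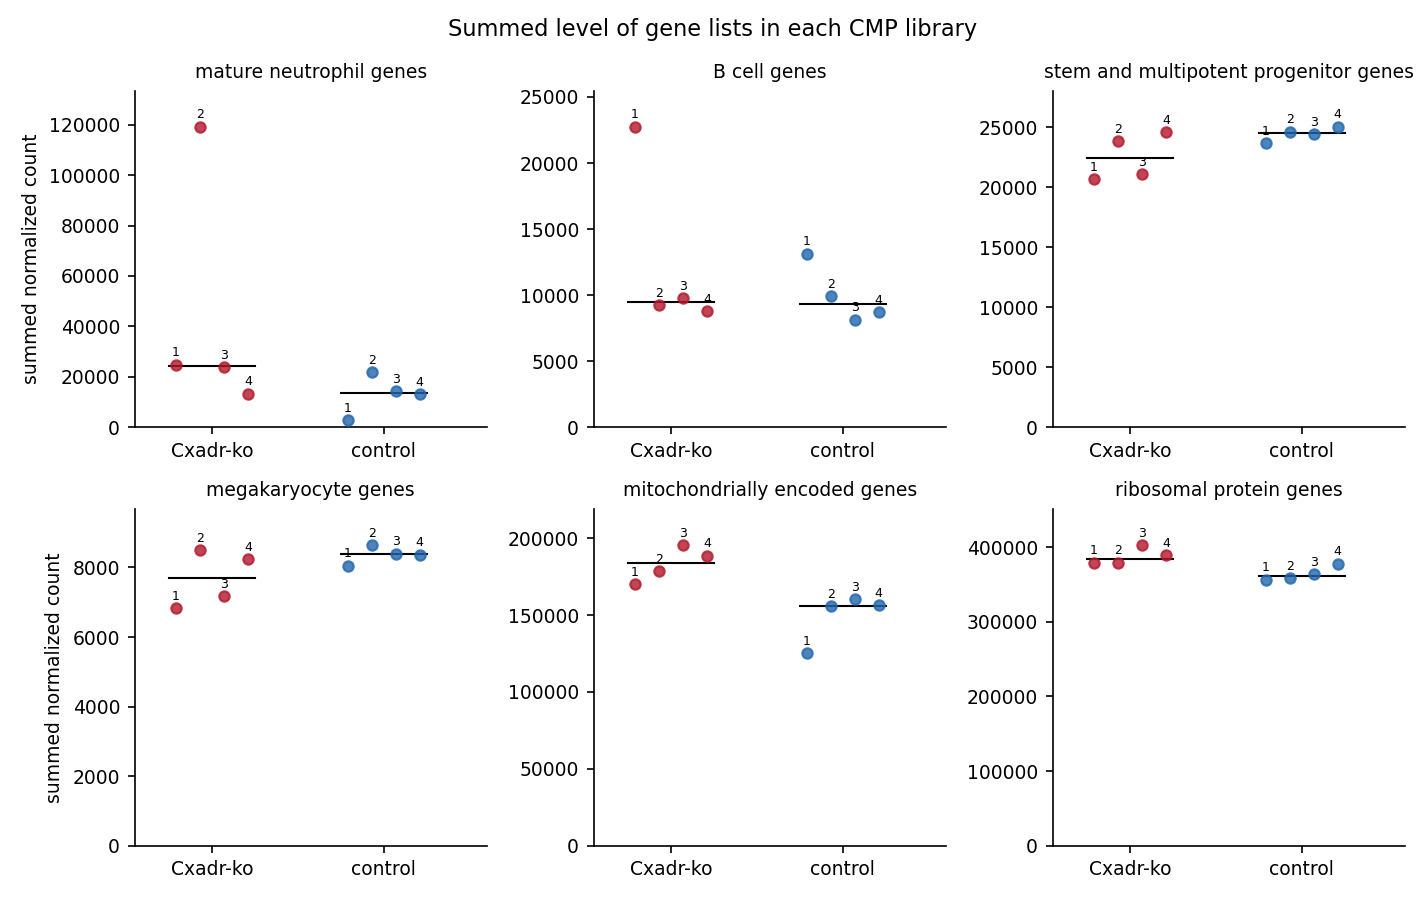
Summed normalized count of all members, tested or not, of 6 gene lists in each CMP library, Cxadr-ko mice (red) left of control mice (blue), with the mouse number above each point and a line at the median of each group. Only the sums of mitochondrially encoded and ribosomal protein genes do not overlap between the groups, and Cxadr-ko mouse 2 stands at 119252 for mature neutrophil genes. The total normalized count was itself higher in every Cxadr-ko CMP library (1.03366e+07 to 1.04636e+07) than in every control CMP library (1.00126e+07 to 1.01301e+07). The sums shown are not scaled to that total, so their separation includes this difference.

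Bmpr1a, Pkd2, Rnf144a, Kansl3 and Epm2aip1, a selection from the 25 genes of lowest p, had lower values in the Cxadr-ko gate. Bmpr1a, a receptor for bone morphogenetic proteins, stood at 21.2, 13.9, 11.9 and 14.5 in Cxadr-ko mice, against 40.1, 50.7, 42.4 and 54.9 in control mice (log2 fold change -1.57 ± 0.29 SE, limma adjusted p = 0.396). Pkd2, the calcium channel polycystin-2, stood at 16.6, 23.8, 16.6 and 11.6 in Cxadr-ko mice, against 44.04, 72.9, 58.4 and 45.6 in control mice (-1.64 ± 0.31 SE, limma adjusted p = 0.396). Neither overlapped, and both are genes of low counts. Rnf144a, a ubiquitin ligase, stood at 214, 231, 188 and 167 in Cxadr-ko mice, against 333, 305, 313 and 299 in control mice (-0.65 ± 0.13 SE, limma adjusted p = 0.499).

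Kansl3, a subunit of the NSL histone acetyltransferase complex, stood at 234, 236, 229.9 and 243 in Cxadr-ko mice, against 322, 358, 306 and 363 in control mice (log2 fold change -0.51 ± 0.11 SE, limma adjusted p = 0.499). Epm2aip1, a binding partner of laforin, stood at 319.6, 338, 225 and 277 in Cxadr-ko mice, against 424, 609, 463 and 445 in control mice (-0.74 ± 0.16 SE, limma adjusted p = 0.499). Both were separated in all 4 against 4 libraries. None of these 5 genes was called.

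Genes of the tight junction and of adhesion, the setting in which Cxadr acts, were for the most part weakly transcribed. Of 32 adhesion genes related to Cxadr, 16 passed the filter, 8 with higher and 8 with lower values (median log2 fold change -0.13, none called, none without overlap). Over all genes tested, 2.36% were higher and 2.07% lower without overlap, so a list of this size may well hold none. The median was 0.02 when only genes of at least 50 counts were kept, -0.04 without Cxadr-ko mouse 1 and -0.24 without control mouse 4. Lnx2, a ubiquitin ligase of the LNX family, stood at 55.3, 37.7, 47.4 and 69.4 in Cxadr-ko mice, against 68.5, 88.1, 73.3 and 94.96 in control mice (-0.64 ± 0.23 SE, limma adjusted p = 0.638), overlapping by 1 library. Patj, a scaffold of apical junctions, had a log2 fold change of -0.85 ± 0.43 (SE). Jaml, the leukocyte ligand of Cxadr, had a log2 fold change of 0.69, and Ctnnb1, beta-catenin, had 0.01.

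Among 25 niche homing and leukocyte adhesion genes 12 were higher and 13 lower (median log2 fold change -0.03, and -0.04 to 0.03 with 1 mouse left out, none called). Sdc2, a heparan sulfate proteoglycan of the surface, stood at 55.3, 33.7, 42.7 and 45.3 in Cxadr-ko mice, against 63.6, 67.9, 123 and 142 in control mice (-1.08 ± 0.29 SE, limma adjusted p = 0.620). Cxcr4, the receptor that holds progenitors in the marrow through Cxcl12, stood at 48.8, 37.7, 50.96 and 35.7 in Cxadr-ko mice, against 22.5, 33.4, 21.8 and 20.5 in control mice (0.80 ± 0.28 SE, limma adjusted p = 0.620). Neither overlapped between the groups. The integrin genes Itga4, Itgb1 and Itga6, by which progenitors hold on to the stroma, had log2 fold changes of -0.05, -0.10 and -0.16.

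Genes by which cells answer interferon, the inducer of the Mx1 promoter, showed no common direction. Of 44 tested, 25 were higher and 19 lower (median log2 fold change 0.03, and -0.02 without Cxadr-ko mouse 4, none called). All 46 genes of the list had sums of 59459 to 64719 in Cxadr-ko and 53167 to 63352 in control libraries. Mx1 itself had a log2 fold change of -0.22 and Isg15 0.24. Dhx58, a cytosolic RNA sensor, stood at 62.6, 42.7, 67.5 and 58.8 in Cxadr-ko mice, against 73.4, 107, 119 and 106 in control mice (-0.80 ± 0.22 SE, limma adjusted p = 0.620). Ifit2, an interferon-induced RNA-binding protein, stood the other way at 149, 171, 158 and 235 in Cxadr-ko mice, against 132, 104, 139.7 and 85.7 in control mice (0.62 ± 0.20 SE, limma adjusted p = 0.620). Both were without overlap.

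NF-kB and TNF response genes were higher in 20 of 26 members (median log2 fold change 0.16, none called). The median was 0.06 without Cxadr-ko mouse 4 and also 0.06 without control mouse 4, but 0.24 without control mouse 2 and 0.25 without mouse 1 of both genotypes. Tnfaip2, a TNF-induced gene, was on the lower side at 82.9, 67.5, 82.96 and 55.9 in Cxadr-ko mice, against 104, 94.2, 134 and 127 in control mice, without overlap (-0.66 ± 0.20 SE, limma adjusted p = 0.620). Of 27 immediate early genes 14 were higher and 13 lower (median 0.01). That median lay between -0.15 (without Cxadr-ko mouse 2) and 0.12 (without Cxadr-ko mouse 1) with 1 mouse left out, and at -0.26 without Cxadr-ko mice 2 and 4. Myc, whose product drives growth and ribosome production, stood at 4917, 5122, 5646 and 6100.1 in Cxadr-ko mice, against 6270.3, 7348, 6062 and 6543 in control mice, overlapping by 1 library (-0.27 ± 0.08 SE, limma adjusted p = 0.620).

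Proliferation and cell death genes likewise split in both directions. Of 45 cell cycle genes 25 were higher and 20 lower (median log2 fold change 0.01, between -0.03 without Cxadr-ko mouse 1 and 0.06 without Cxadr-ko mouse 2), with Mki67 at -0.22, Ccnd1 at 0.50 and Pcna at 0.04, none called. Of 22 p53 target and BCL2 family genes 7 were higher and 15 lower (median -0.06, between -0.17 without Cxadr-ko mouse 2 and -0.01 without Cxadr-ko mouse 4). Bax, a pore-forming killer of the BCL2 family, stood at 1011, 1096, 1046 and 996 in Cxadr-ko mice, against 845, 844, 889 and 961 in control mice, without overlap (0.23 ± 0.08 SE, limma adjusted p = 0.620), while Cdkn1a and Mdm2, textbook p53 targets, had -0.17 and 0.05. Cholesterol synthesis and uptake genes were higher in 18 of 24 (median 0.13, 0.09 without control mouse 3 and 0.23 without control mouse 1) and endoplasmic reticulum stress genes in 14 of 22 (median 0.03, between -0.05 without Cxadr-ko mouse 2 and 0.07 without Cxadr-ko mouse 3), none called. Of 26 myeloid cytokine receptor genes 17 were higher and 9 lower (median 0.11, 0.02 without control mouse 4 and 0.07 without Cxadr-ko mouse 1). Monocyte, macrophage and dendritic cell genes were higher in 15 of 21 (median 0.28, 0.47 when only genes of at least 50 counts were kept, 0.18 without Cxadr-ko mouse 1 or control mouse 3, and 0.57 without Cxadr-ko mice 2 and 4). Of 22 genes of progenitor surface molecules 15 were higher and 7 lower (median 0.11, 0.06 without Cxadr-ko mouse 4 and 0.02 without mice 2 and 4), and of 5 stromal and endothelial genes 2 were higher and 3 lower, with no call in any of these lists.

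The same mice allow the difference in the CMP gate to be set against that in the other gates. Within its own fit LSK gave 7 calls of 16166 genes (0.0433%), GMP 3 of 15593 (0.0192%) and MEP 4 of 15812 (0.0253%). The Cwc22 family was as much lower elsewhere: its summed count in Cxadr-ko libraries was 0.486 times that of controls in CMP, 0.503 times in LSK, 0.497 times in GMP and 0.462 times in MEP. For Cwc22, the log2 fold change in CMP minus the mean of the other gates was 0.00 ± 0.05 (SE, limma adjusted p = 0.9996), and for Gm13694, Gm13695 and Gm13696 it was 0.02 ± 0.08, 0.01 ± 0.07 and -0.09 ± 0.07.

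Over all genes, 1 of 15737 had a genotype difference in CMP that differed from that in the other gates at an adjusted p under 0.05 (0.00635%), with 453 at an unadjusted p under 0.05 (2.88%). It was Wrap73, a WD-repeat protein of the centrosome. In CMP it stood at 150.2, 132, 95.99 and 105 in Cxadr-ko mice, against 213, 247, 185 and 159 in control mice, all lower without overlap (log2 fold change -0.74 ± 0.19 SE). In LSK its log2 fold change was -0.12 ± 0.14, in GMP 0.31 ± 0.22 and in MEP 0.28 ± 0.20 (SE). The CMP value minus the mean of the other gates was -0.90 ± 0.14 (SE, limma with Benjamini-Hochberg adjustment, adjusted p = 0.0339). Leaving out any 1 mouse other than control mouse 3 ended this call.

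Several uncalled genes had a larger value in CMP than elsewhere, but the test of that difference did not pass. Bmpr1a had a log2 fold change of -1.57 in CMP, 0.24 in LSK, -0.52 in GMP and -0.73 in MEP, a difference of -1.24 ± 0.61 (SE, limma adjusted p = 0.9996). Pkd2 had -1.64 in CMP, -0.31 in LSK, 0.49 in GMP and -0.62 in MEP (difference -1.50 ± 0.52). Trim24, a chromatin reader and ubiquitin ligase, stood at 119.8, 83.3, 85.3 and 50.1 in Cxadr-ko mice and at 134, 180.3, 177 and 163 in control mice in CMP, without overlap, and had log2 fold changes of 0.36, 0.11 and -0.43 in LSK, GMP and MEP (CMP minus their mean -1.01 ± 0.28, limma adjusted p = 0.9996). Tyrobp had 0.65 in CMP, 0.55 in LSK, 0.20 in GMP and 0.34 in MEP. Sdc2 had a similar value in all gates, at -1.08, -1.09, -1.16 and -1.26 in CMP, LSK, GMP and MEP, and Rbm45 had -0.64, -0.80, -0.40 and -0.68 in the same order.

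**Figure D5:**
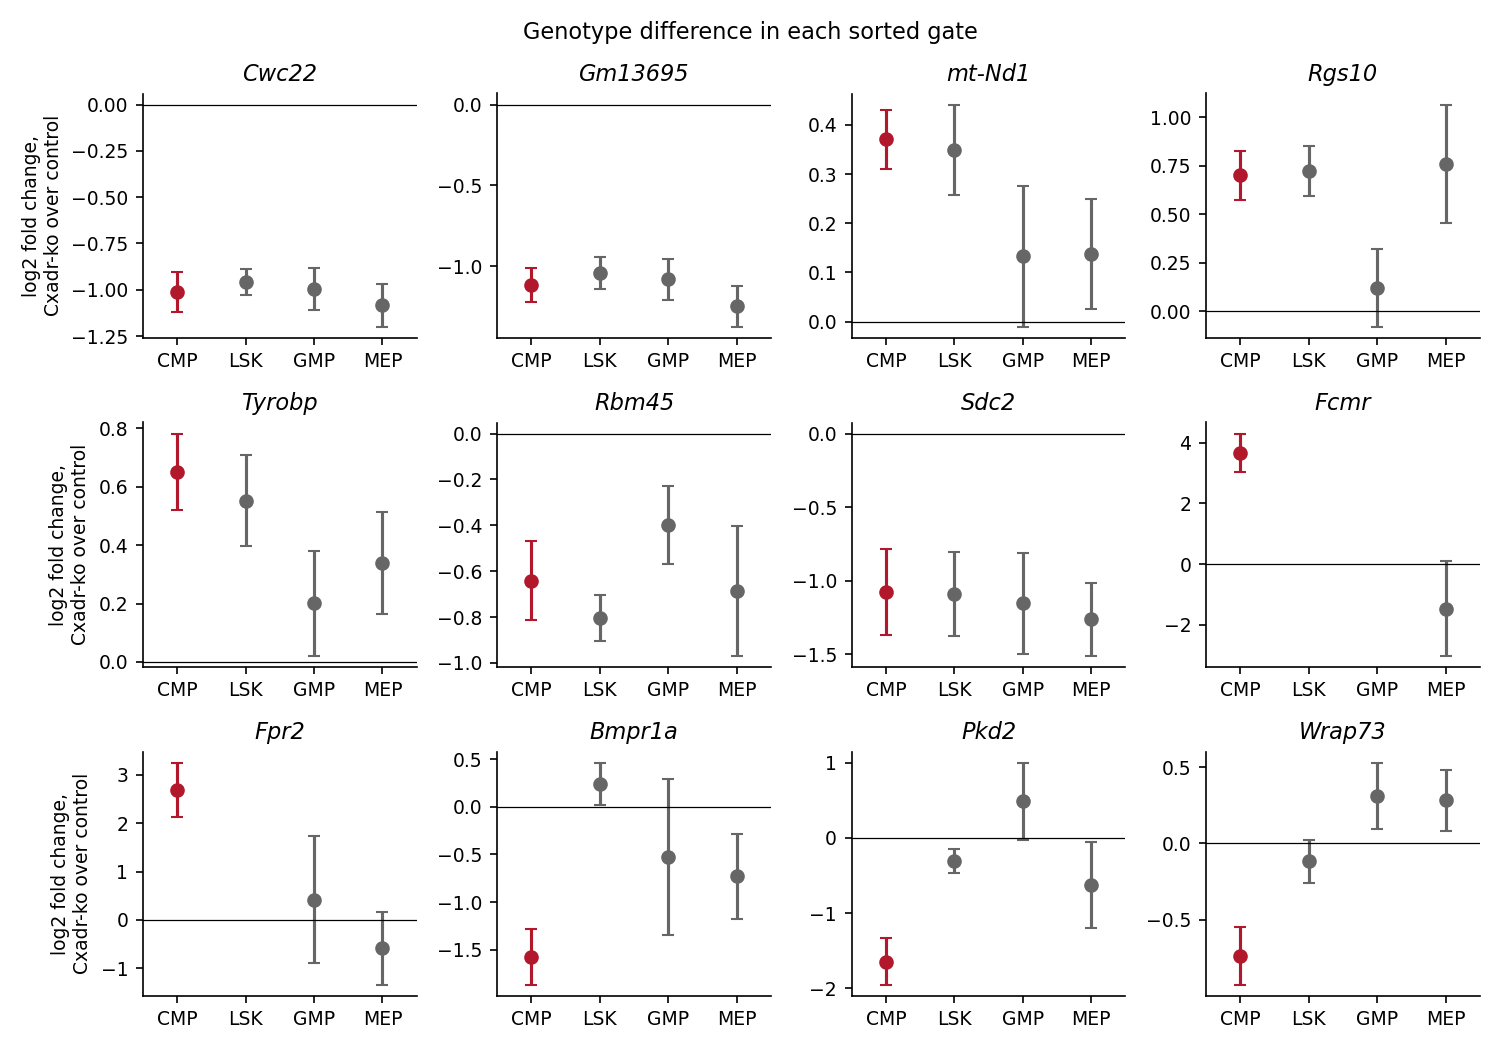
Log2 fold change, Cxadr-ko over control, with its SE in each sorted gate for 12 named genes, CMP in red and the other gates in grey; a gate is left out where the gene did not pass the filter. Cwc22 and Gm13695 lie near -1 in every gate, whereas Wrap73 is at -0.74 in CMP and at -0.12, 0.31 and 0.28 in LSK, GMP and MEP.

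The lists also differed between gates in their medians, which are given as a description without a test. Mature neutrophil genes had a median log2 fold change of 1.88 in CMP, 0.76 in LSK, 0.80 in GMP and 0.11 in MEP. Stem cell genes had -0.23, -0.15, -0.06 and -0.21 in the same order, and megakaryocyte genes -0.20, -0.30, -0.15 and -0.30. Mitochondrially encoded genes had 0.28 in CMP, 0.27 in LSK, 0.10 in GMP and 0.11 in MEP. NF-kB and TNF response genes had 0.16 in CMP, against 0.42 in LSK, 0.20 in GMP and -0.03 in MEP.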

How the data were processed

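The table deposited by the authors gave gene signal values that are counts divided by 1 size factor per library. Per the submitters' processing notes STAR, DESeq2, GRCm38 and mm10 were used, and the sources used here do not name the read counter. Per the labels' protocols cells were sorted into TRIzol and libraries made with a NEBNext low-input kit. In each library all 100% of values above 0 (765992 in 32 libraries) were whole multiples of 1 step, within 0.001 reads, which gave whole reads for edgeR 4.0.16 and DESeq2 1.42.0.

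The main test was limma 3.58.1 (R 4.3.3, trend, two-sided) on log2 of the value plus 1, 4 against 4, with genes at 10 or more in at least 4 libraries. A gene counted as called below 0.05 after Benjamini-Hochberg adjustment. The difference against the other gates was a limma contrast over all 32 libraries, each mouse being a block. Fold changes on this scale understate changes of low genes.

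The comparison, the gene lists and the rule for named genes were chosen with earlier results of these data known. The rule takes Cxadr, called genes, the 25 of lowest p, up to 10 of lowest p against the other gates, and of each list up to 4 of lowest p and 3 of highest level; printed genes were chosen among them after their values were seen, and Elane, Klf1, Gata1 and list members given with a fold change alone fall partly outside it. Some genes that the rule takes are not reported here. Same-numbered mice of the genotypes are different animals (correlations of deviations 0.319, 0.0574, -0.00923 and 0.0598), so no block was used. Every library held Xist at 2295 or more and at most 5 reads of 4 Y-linked genes.

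On simulated libraries of the CMP comparison (15397 genes) limma recovered 61.5% of 2-fold and 90% of 4-fold changes with 9 unchanged genes called, and DESeq2 74% and 96% with 33. For the contrast with the other gates limma recovered 56.2% of 2-fold and 85% of 4-fold changes with 12 unchanged genes called. Each simulated comparison held 96 tested genes of 2-fold and 100 of 4-fold change. The Benjamini-Hochberg threshold eases as more genes change, so these shares and counts need not hold for the real libraries, where 4 genes were called.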

Additional observations from a re-analysis of the deposited data

Results flagged for a closer look

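Of 196 groups of 4 libraries checked, 25 held a library far from the other 3 (Dixon's test), where chance marks about 1 in 20 groups. Cxadr-ko mouse 2 was far above its group in mature neutrophil genes, with a summed count of 119252, and in Fpr2 (152), Chil3 (2757), Ltf (3769), Cd177 (1376), S100a8 (36313), S100a9 (13770), Ngp (35571) and Fcgr3 (825). Control mouse 1 was far below its group in the summed mitochondrially encoded genes (125002), mt-Co1 (17616), Gm28437 (23846), Gm28661 (15142), Gm13341 (3530.04) and Gm13696 (1334). Cxadr-ko mouse 1 was far below in Gm13694 (995), Gm13695 (266) and the summed heme synthesis and iron genes (28482), and far above in the summed B cell genes (22759), lymphoid progenitor genes (29638) and niche homing and leukocyte adhesion genes (46642). Control mouse 1 was far above in the last list too (46353). Cxadr-ko mouse 4 stood far above in summed erythroid genes (7276), control mouse 3 in Ms4a1 (36.6) and control mouse 2 in Cxcr4 (33.4).

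Wrap73 had a genotype difference in CMP that differed from that in the other gates by -0.90 on the log2 scale (limma contrast, adjusted p = 0.0339, lower in 4 of 4 Cxadr-ko mice in CMP).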

How the results depend on the processing

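The count of 4 CMP calls was the same with a pseudocount of 5, no filter (34838 genes), a filter of 50, TMM or quantile scaling, edgeR, robust variance and a fit of all 32 libraries. It was 9 with a term for the animal-identifier series, 7 without mouse 1 of both genotypes, 39 with DESeq2, and 8 without Cxadr-ko mice 2 and 4, an alternative chosen after seeing the data. Leaving out 1 mouse gave 0 to 5 calls. With 0 calls (without control mouse 3, limma) 838 genes had an unadjusted p under 0.05. The mouse number as a replicate block gave 6 calls. It added Gm10925 and Gm28437, which share the letters of mitochondrial transcripts, to the 4. Same-numbered mice are different animals, but mouse 1 of both genotypes also shares the animal-identifier series. Deviations correlated at 0.319 for mouse 1 and at -0.00923 to 0.0598 for the other numbers. All 4 Cwc22 family genes were called in each setting that kept at least 4 calls. The count against the other gates was 0 without mouse 1 of both genotypes and 0 to 1 without 1 mouse. Cxadr had log2 fold changes of 0.01 to 0.56 and no value under the filter of 50. The causes were not tested. The counts of Cxadr, Fcmr, Slc40a1, Bmpr1a and Pkd2 lie near the filter.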
